A study of Mus musculus with 7 samples.

Results

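Neat1 and Malat1 are neighbouring genes for long noncoding RNAs on mouse chromosome 19, and the hotspots around them were compared between 3 nucleases. A hotspot is a stretch of the genome where the ends of nuclease-released fragments cluster above background, and it marks accessible chromatin. Every hotspot was taken that overlapped either gene or the 20 kb on each side, a window from 5775690 to 5865478 of mm9 with a length of 89789 bp. It held 35 of the 190871 deposited hotspots, of which 16 were from the DNase I list, 9 from the Benzonase list and 10 from the Cyanase list. The locus was picked because Neat1 contains the widest hotspot of the DNase I list, so widths are given as a description and not tested.

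All livers came from male C57BL/6 mice, labelled as 8 week of age. Benzonase and Cyanase, endonucleases that stay active in detergent, were applied to pulverized frozen liver at 0.25, 1 and 4 U, with 1 library per dose. DNase I was applied to nuclei purified from fresh liver and has 1 sample in the labels, while the header of its list names 2 pooled libraries. Enzyme and starting material thus changed together, and their parts in any difference from DNase I cannot be told apart. The authors pooled the tags of each nuclease before calling hotspots, so each nuclease is 1 list of positions without a spread between replicates and without tag numbers, and the differences below carry no test. Liver holds several cell types, and a hotspot of pooled tags cannot be assigned to one of them. As a check of the tissue, start sites of 6 of 6 hepatocyte markers lay in hotspots of all 3 lists, against 30.8% of all 37273 annotated genes. The shares of all genes with a start site in a hotspot of 1 list were 32.2% (DNase I), 39.0% (Benzonase) and 37.8% (Cyanase). Among 6 markers of other tissues, DNase I marked 0, Benzonase 1 and Cyanase 1 (Gfap in both). Of 4 Kupffer cell markers, start sites of 3 lay in DNase I, 0 in Benzonase and 1 in Cyanase hotspots. Endothelial markers were marked in 1, 2 and 2 of 4 cases, and stellate cell markers in 0, 2 and 3 of 3 cases, in the same order. With 3 or 4 genes each, these 3 lists of other liver cells allow no reading against those shares.

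Neat1 RNA is the scaffold of paraspeckles, nuclear bodies built from this RNA and RNA-binding proteins such as SFPQ and NONO. A short and a long transcript start at the same promoter, and the long transcript is the one needed to build the body. Malat1 RNA is an abundant resident of nuclear speckles, where splicing factors are stored. Neither the long Neat1 transcript nor Malat1 ends in a conventional poly(A) tail. Their ends are made by RNase P, which cuts in front of a tRNA-like fold, and they are protected by a triple helix of U-rich motifs with an A-rich tract.

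Neat1 (ENSMUSG00000092274.1) runs on the minus strand from 5845478 down to 5824708, and its longest transcript is a single exon of 20771 bp. Malat1 (ENSMUSG00000092341.1) runs on the same strand from 5802671 down to 5795690, with a longest transcript of 6982 bp in 1 exon. The Malat1 start site lies 22036 bp beyond the annotated end of Neat1. The Malat1 promoter is shown because all 3 nucleases met there. It runs from 250 bases before to 50 bases from the start site, 5′ to 3′ on the minus strand of mm9, with the searched motifs in capitals.
Malat1 promoter, chr19:5802622-5802921: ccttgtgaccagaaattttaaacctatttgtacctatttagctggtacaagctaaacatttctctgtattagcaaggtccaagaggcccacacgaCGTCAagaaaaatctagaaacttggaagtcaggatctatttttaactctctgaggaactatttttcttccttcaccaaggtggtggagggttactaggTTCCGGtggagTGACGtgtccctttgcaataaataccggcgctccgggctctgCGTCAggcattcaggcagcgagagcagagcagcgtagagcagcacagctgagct

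The letters searched on both strands, chosen after the promoter sequence had been seen, were TATAAA (the TATA box), CCAAT (bound by NF-Y), GGGCGG (GC box), TGACG (core of the cAMP response element), TGACGTCA (its full form, which contains the core), CACGTG (E-box), TGTTTAC (FOXA core) and CCGGAA (ETS core). Malat1 held TGACG beginning at -46 relative to the start site at position 0 and, on the opposite strand, at -155 and -4, a motif found in 18.6% of the 37273 promoters of the same length. It also held CCGGAA on the opposite strand from -57 to -52 (12.8% of all promoters). The hits did not overlap one another. The letters of the TATA box, the NF-Y site, the GC box, the full cAMP response element, the E-box and the FOXA core were not in this window, against 16.2%, 38.3%, 30.4%, 1.61%, 6.21% and 3.38% of all promoters. GC content was 47.0%, and the median over all promoters was 50.3%.

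The 3′ ends are shown because the 2 genes, which otherwise differ in length and in hotspots, share sequence there. Local alignment of the 700 bases before and 150 bases after each annotated end found a stretch with 50 identical bases in 65 aligned positions (76.9%). Capitals mark the identical bases.
Neat1 3′ stretch, chr19:5824655-5824718: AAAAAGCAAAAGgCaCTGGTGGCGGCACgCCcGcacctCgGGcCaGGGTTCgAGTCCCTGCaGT
Malat1 3′ stretch, chr19:5795928-5795992: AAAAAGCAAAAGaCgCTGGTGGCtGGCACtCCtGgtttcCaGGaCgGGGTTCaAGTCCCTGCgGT
In the 120 bases before these stretches, capitals mark the words of at least 12 bases that occur in both genes. They are U-rich in the RNA, with lengths of 13 and 16 bases.
Neat1, chr19:5824719-5824838: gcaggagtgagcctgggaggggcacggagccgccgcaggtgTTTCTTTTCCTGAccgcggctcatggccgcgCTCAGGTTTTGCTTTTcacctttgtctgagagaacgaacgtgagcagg
Malat1, chr19:5795993-5796112: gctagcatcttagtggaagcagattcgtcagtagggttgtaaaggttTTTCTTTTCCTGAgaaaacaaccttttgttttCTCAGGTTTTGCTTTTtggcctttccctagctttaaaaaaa

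Across the window, hotspots of the 3 lists merged into 14 regions. All 3 nucleases were present in 7 of them and DNase I alone in the other 7, while 0 regions lacked DNase I. No share of merged regions over the genome is given here, so these counts are a description and cannot be read as particular to the window. The shares below are per hotspot of 1 list. A partner in at least 1 of the other lists, meaning an overlap of at least 1 bp, was found for 9 of the 16 DNase I hotspots, and the share over the whole DNase I list was 63.0%. Of the 9 Benzonase hotspots, 8 overlapped a DNase I hotspot (69.3% over the list) and 9 a Cyanase hotspot (79.6% over the list). All 10 Cyanase hotspots overlapped DNase I (71.1% over the list) and Benzonase (85.4% over the list). So few hotspots do not allow a difference from those shares to be read.

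In bases, the lists differed more. DNase I hotspots covered 21059 bp or 23.5% of the window, Benzonase hotspots 10965 bp or 12.2% and Cyanase hotspots 10531 bp or 11.7%. Over all of chromosome 19 the shares were close to each other, at 2.84%, 2.73% and 2.50% in the same order. The 6867 bp of the hotspot that picked the locus are part of the DNase I sum. Without it, DNase I hotspots covered 14192 bp or 15.8% of the window (an alternative chosen after the data were seen).

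**Figure D1:**
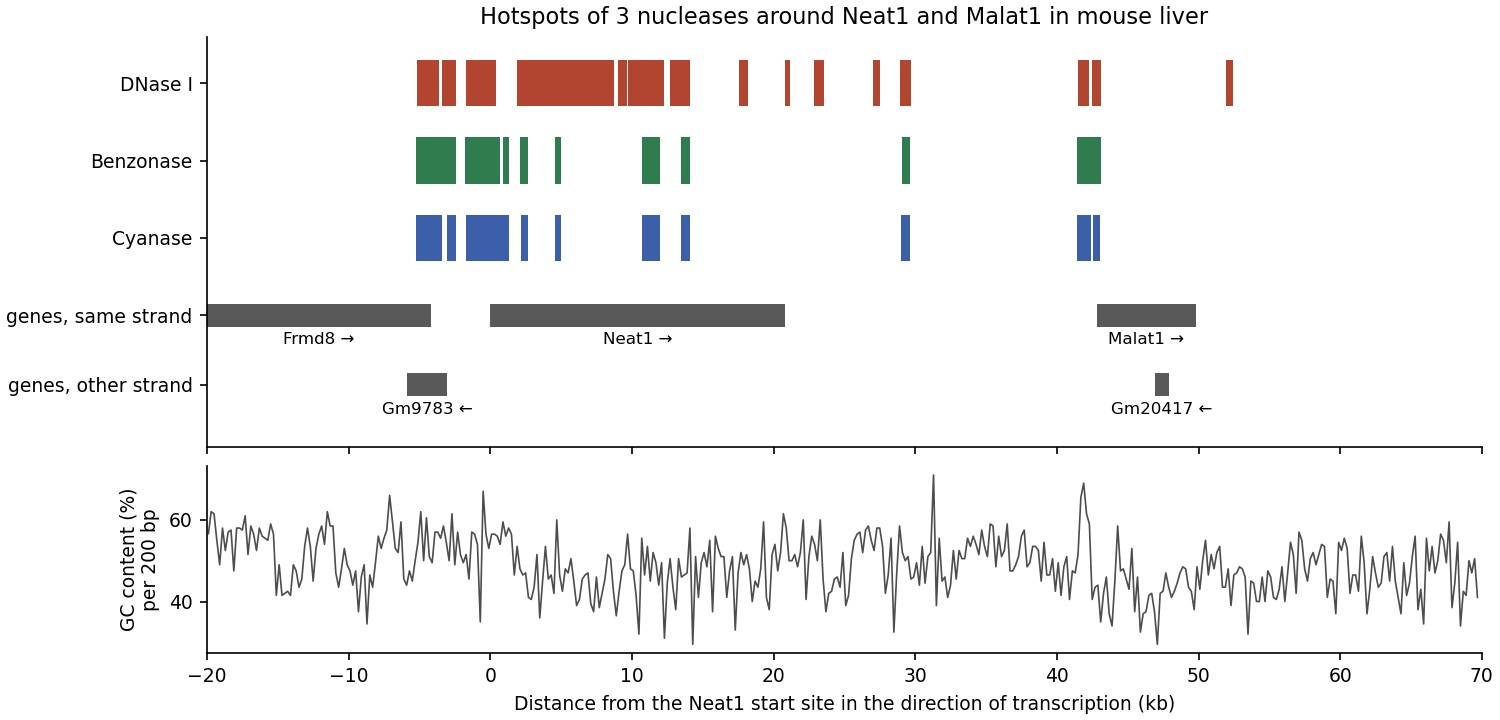
Map of the window, with the distance from the Neat1 start site along the direction of transcription (kb) on the x axis, 1 row of bars per nuclease list for the hotspots, the annotated genes below and the GC content in bins of 200 bp. All 3 lists mark the 5′ ends of Neat1 and Malat1, and DNase I hotspots fill much of Neat1, whereas the body of Malat1 holds none beyond its 5′ end.

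At the Neat1 promoter, each list had 1 hotspot over the start site, and all were among the wide ones of their list. The DNase I hotspot ran from 5845094 to 5847218 (2125 bp, wider than 99.5% of its list). Benzonase gave 5844779 to 5847257 (2479 bp, wider than 98.9%) and Cyanase 5844150 to 5847210 (3061 bp, wider than 99.7%). Upstream of the start site the hotspots ended at almost the same place, 1740, 1779 and 1732 bp away for DNase I, Benzonase and Cyanase, a spread of 47 bp. On the gene side they reached 384, 699 and 1328 bp into Neat1, a spread of 944 bp. Over 9007 start sites that lay in exactly 1 hotspot of each list, the median spread was 107 bp upstream and 291 bp on the gene side. A smaller gene-side spread than that of Neat1 was seen at 90.8% of those start sites, and a smaller upstream spread at 20.5%. The shared part covered a CpG-rich stretch of 803 bp, from 5845387 to 5846189, with 56.0% GC and an observed to expected CpG ratio of 0.69.

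Downstream of the promoter, the first part of the Neat1 RNA was the place where Benzonase and Cyanase reached and DNase I did not, apart from 11 bp of Cyanase near 14 kb. Benzonase had a separate hotspot from 5844161 to 5844595 (435 bp), inside the Cyanase promoter hotspot, and it was the 1 Benzonase hotspot of the window without DNase I overlap. This was also the longest stretch covered by both Benzonase and Cyanase and not by DNase I. Its GC content was 59.3%, higher than that of 84.8% of the Benzonase hotspots. Its central 300 bases, which lie in exons of the short and the long transcript, are shown with CG dinucleotides in capitals, 11 in all.
Neat1 5′ stretch without DNase I, chr19:5844228-5844527: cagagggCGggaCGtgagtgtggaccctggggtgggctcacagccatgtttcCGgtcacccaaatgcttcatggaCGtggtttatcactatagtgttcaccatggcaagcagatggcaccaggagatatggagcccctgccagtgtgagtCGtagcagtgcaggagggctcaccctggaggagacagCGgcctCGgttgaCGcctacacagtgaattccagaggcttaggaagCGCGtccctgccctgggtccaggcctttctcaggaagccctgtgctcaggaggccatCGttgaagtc
Between the Cyanase promoter hotspot and the next hotspots, 521 bp from 5843629 to 5844149 were covered by no list.

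The widest DNase I hotspot of the genome lay wholly inside Neat1, from 5836762 to 5843628, and was 6867 bp wide. It began 1850 bp downstream of the start site, ended 8716 bp downstream of it and took up 33.1% of the gene. The next widest in the DNase I list were 6357 bp over AY036118 on chromosome 17, 6166 bp on chromosome Y and 5404 bp over Errfi1, a feedback inhibitor of EGF receptor signalling. It was not the promoter hotspot, from which 1465 bp without DNase I hotspots separated it. The end of the short transcript (Neat1-002, 5842307 to 5845476) fell inside it, so that 1322 bp of the hotspot belonged to both transcripts and 5545 bp to the long transcript alone.

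Benzonase and Cyanase marked only small parts of this hotspot. Benzonase had 5840477 to 5840897 (421 bp) and 5842835 to 5843421 (587 bp), and Cyanase 5840480 to 5840914 (435 bp) and 5842835 to 5843331 (497 bp). Together they covered 14.9% of its bases. Among the 44 DNase I hotspots at least 3000 bp wide, the median share covered by the other lists was 94.0%. A lower share than at Neat1 was seen in 1 of the 44, which had 0% and lay over Mid1, Gm15726 and G530011O06Rik on chromosome X (named after its values were seen). At the 4 DNase I hotspots next in width after Neat1 the shares were 98.3%, 98.8%, 92.7% and 98.0%, the last at Tat, the liver enzyme that begins tyrosine breakdown. The rule picked the Neat1 hotspot by its width, over which its share covered by the other enzymes is taken. That share is thus not independent of the rule and is given as a description.

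The longest stretch of the window covered by DNase I alone was the distal part of this hotspot, 3715 bp from 5836762 to 5840476 with 44.3% GC. A further 1920 bp from 5840915 to 5842834, between the small Benzonase and Cyanase hotspots, had 44.6% GC. The pieces covered by all 3 lists had 53.6% GC (5840480 to 5840897) and 44.3% GC (5842835 to 5843331). The whole hotspot had 45.3% GC, and the 5 kb on either side had 49.9%. The central 300 bases of the longest stretch are shown as an example of Neat1 sequence that DNase I alone marked, with the 1 run of at least 8 A or T in capitals. They contain 3 CG dinucleotides, against 11 in the 5′ stretch shown above.
Neat1 stretch of DNase I alone, chr19:5838469-5838768: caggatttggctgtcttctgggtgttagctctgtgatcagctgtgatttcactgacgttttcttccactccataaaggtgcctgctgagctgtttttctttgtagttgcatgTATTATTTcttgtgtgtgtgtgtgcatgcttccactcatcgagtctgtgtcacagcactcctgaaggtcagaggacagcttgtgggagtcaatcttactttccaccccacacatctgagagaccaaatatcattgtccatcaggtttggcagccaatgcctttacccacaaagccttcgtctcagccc

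Further along the gene, DNase I hotspots followed one another almost without a break. From 5833227 to 5835521 lay a hotspot of 2295 bp, wider than 99.7% of the list, followed towards the promoter after 3 bp by one of 263 bp and after a further 10 bp by one of 681 bp. A gap of 283 bp then led to the widest hotspot. In the whole DNase I list, 0.328% of neighbouring hotspots were 10 bp or less apart. A hotspot of 1464 bp, from 5831367 to 5832830, lay on the 3′ side of this chain after a gap of 396 bp. Benzonase and Cyanase each marked 1 part of these wide hotspots, from 5833491 to 5834780 (1290 bp) and from 5833504 to 5834782 (1279 bp) in the first, and from 5831371 to 5832023 (653 bp) and from 5831356 to 5832018 (663 bp) in the second. The hotspots of 263 and 681 bp had no partner in either list.

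In bins of 1 kb from the start site, DNase I hotspots covered 38.5% of the first bin and 15.0% of the second, where Benzonase covered 81.7% and 31.8% and Cyanase 100% and 32.9%. The 6 bins from 2 to 8 kb lay wholly inside the hotspot that picked the locus. That DNase I covered 100% of each of them thus follows from that choice. Both other lists covered at most 58.7% of any of these bins and none of the bases from 6 to 10 kb. In the bin from 11 to 12 kb the lists met again, with 100%, 98.8% and 97.5%. Beyond 15 kb, Benzonase and Cyanase had no hotspots in the gene, and DNase I had 1, of 675 bp from 5827281 to 5827955.

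**Figure D2:**
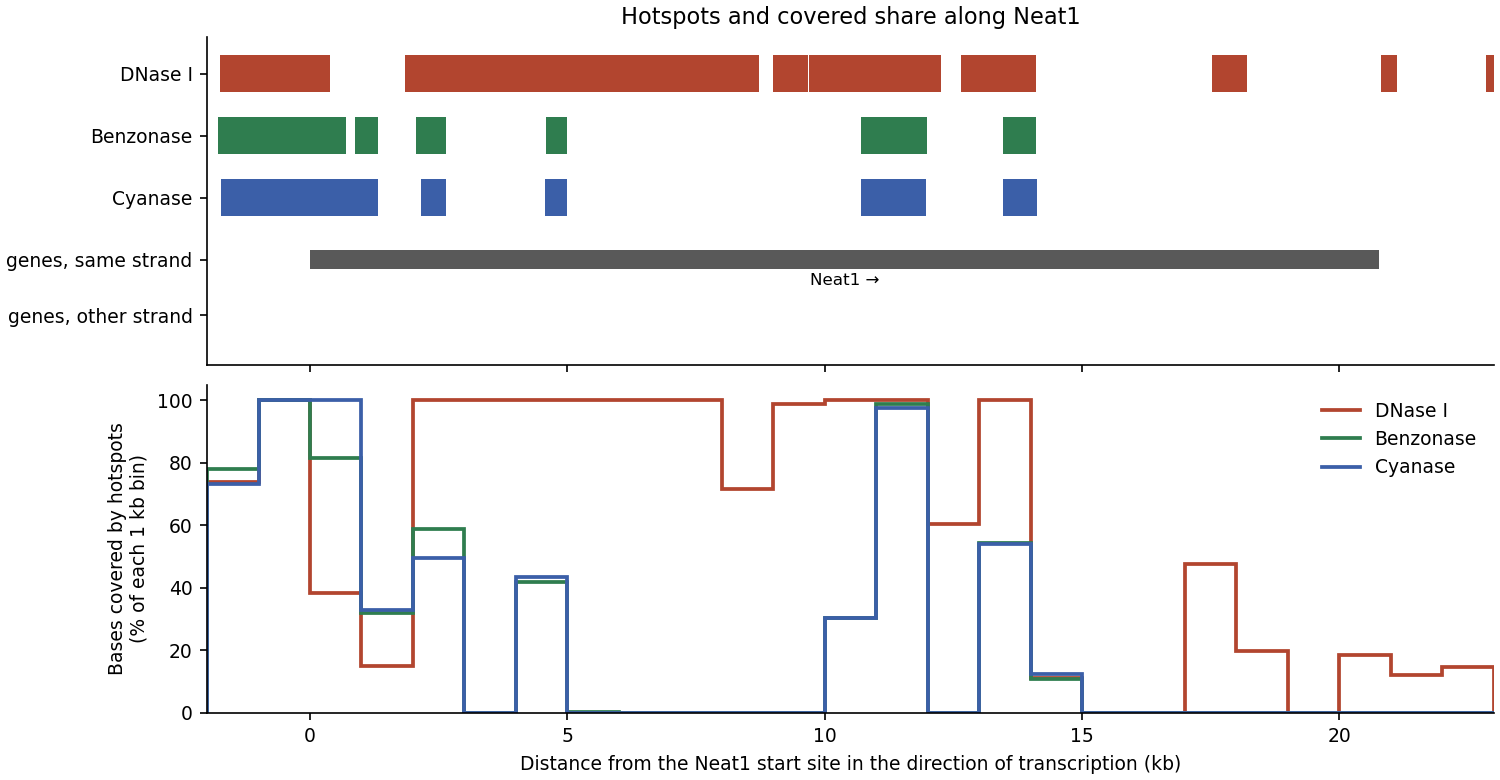
Hotspots of each list along Neat1 (upper part) and the percentage of bases covered by hotspots in each 1 kb bin (lower part, 1 line per list), against the distance from the start site in kb. Benzonase and Cyanase lead in the first 2 bins. DNase I covers 100% of each bin from 2 to 8 kb, all inside the hotspot that picked the locus.

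Over the 3170 bp of the short transcript, the summed shares were near each other, at 53.8% (DNase I), 54.3% (Benzonase) and 57.5% (Cyanase), but different bases made them up. All 3 lists covered 880 bp of it, DNase I alone 735 bp and Benzonase or Cyanase without DNase I 944 bp. Over the 17599 bp that belong to the long transcript alone, DNase I covered 62.1%, Benzonase 13.4% and Cyanase 13.5%. Of the DNase I bases there, 5545 bp belonged to the widest hotspot. GC content was 51.3% in the short transcript span and 46.5% beyond it.

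The annotated 3′ end of Neat1 had a small DNase I hotspot of 308 bp just past it, from 5824357 to 5824664. It overlapped the shared 3′ stretch by 10 bp, and its width exceeded that of 3.86% of the DNase I list. Benzonase and Cyanase had no hotspot there. Between Neat1 and the Malat1 promoter, DNase I alone marked 5821956 to 5822624 (669 bp, 54.4% GC) and 5817951 to 5818441 (491 bp, 56.6% GC). All 3 lists marked 1 place in this interval, from 5815809 to 5816536 (728 bp) for DNase I, from 5815867 to 5816396 (530 bp) for Benzonase and from 5815849 to 5816462 (614 bp) for Cyanase.

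Malat1 differed from Neat1 in having hotspots at its 5′ end only. The DNase I hotspot over its start site ran from 5802358 to 5803031 (674 bp), the Benzonase hotspot from 5802377 to 5804070 (1694 bp) and the Cyanase hotspot from 5802404 to 5802966 (563 bp). They reached 313, 294 and 267 bp into the gene, a spread of 46 bp, which was smaller at 6.56% of the 9007 start sites. Upstream the edges lay 360, 1399 and 295 bp away, a spread of 1104 bp, and the spread was smaller at 98.4% of the start sites. At Neat1 the gene side was the uneven one, and at Malat1 the upstream side. DNase I and Cyanase each had a second hotspot, of 745 bp from 5803243 and of 971 bp from 5803074, after gaps of 211 and 107 bp, where Benzonase had 1 unbroken hotspot. With the second hotspots included, the outer edges lay 1316, 1399 and 1373 bp upstream, a spread of 83 bp.

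The upstream part of this region was rich in GC. The second DNase I hotspot had 61.7% GC, above 94.6% of the list, and an observed to expected CpG ratio of 0.89. A CpG-rich stretch of 1285 bp, from 5802952 to 5804236 with 57.7% GC, lay over it. The first DNase I hotspot, over the start site, had 40.5% GC, above 18.8% of the list. The remaining 6668 bp of Malat1, 95.5% of the gene, were covered by no list, and Gm20417, annotated on the opposite strand inside it, had no hotspot either. The shared 3′ stretch of Malat1 was thus outside the hotspots of all lists. A DNase I hotspot of 490 bp lay downstream of Malat1, from 5793047 to 5793536.

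Upstream of Neat1, past 616 bp covered by no list, a broad region of all 3 lists lay over Gm9783, annotated as a processed transcript on the plus strand, and the 3′ end of Frmd8, a FERM domain protein gene. Benzonase had 1 hotspot from 5847874 to 5850749 (2876 bp, its widest in the window). DNase I and Cyanase had 2 each, spanning 2758 and 2805 bp with gaps of 174 and 357 bp inside. As upstream of Malat1, Benzonase was unbroken and the other lists were split. Here the DNase I gap was covered by Cyanase and the Cyanase gap by DNase I. At the Neat1 promoter the reverse was seen, where 1 Cyanase hotspot overlapped 2 Benzonase hotspots. From 5850750 to the edge of the window, in Frmd8 and the last part of Gm9783, there was no hotspot.

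**Figure D3:**
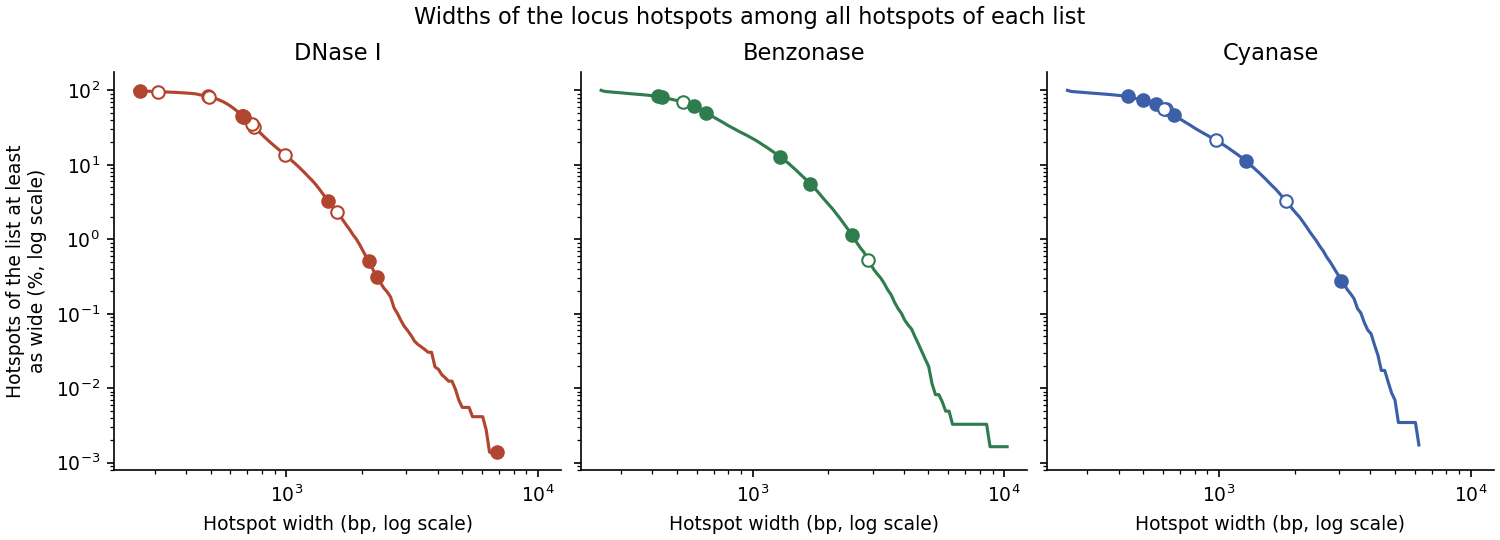
Hotspot width in bp (x axis, log scale) against the percentage of hotspots of the same list that are at least as wide (y axis, log scale), 1 panel per nuclease. Lines are all hotspots of the list, filled points hotspots that touch Neat1 or Malat1 and open points the others of the window. The DNase I hotspot of 6867 bp is the last point of its curve, whereas the widest Benzonase and Cyanase hotspots of the window, 2876 and 3061 bp, lie short of theirs.

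Of the widths in the window, DNase I hotspots ranged from 263 to 6867 bp with a median of 704.5 bp, against 649 bp over the list. Benzonase hotspots ranged from 421 to 2876 bp (median 653 bp, list 652 bp) and Cyanase hotspots from 435 to 3061 bp (median 638.5 bp, list 641 bp). The medians were near those of the lists. The rule picked the locus by its widest DNase I hotspot, so the upper end of the DNase I range follows from that choice.

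Where Benzonase and Cyanase hotspots matched 1 to 1 in the body of Neat1, they began and ended close to each other. For the 4 pairs of hotspots that matched 1 to 1 there, the 8 edges differed by 0 to 90 bp with a median of 9 bp, and 7 of them by 20 bp or less. Over the genome, the 46300 such pairs had a median difference of 36 bp, and 32.7% of their edges were within 20 bp. Between DNase I and Benzonase, the 2 pairs in the gene body had a median difference of 502.5 bp, against 74 bp over 38195 pairs of the genome. Between DNase I and Cyanase the median was 508 bp, against 72 bp over 37203 pairs. The promoter hotspots are not among the pairs of the gene body. There the Benzonase and Cyanase hotspots reached 699 and 1328 bp into Neat1. So few pairs do not allow a difference from the genome to be read.

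Summed over the window, GC content differed with the lists that covered the bases. Bases covered by DNase I alone (11362 bp) had 46.6% GC, those covered by all 3 lists (9022 bp) 52.1%, and those covered by Benzonase or Cyanase without DNase I (1580 bp) 55.8%. Bases covered by DNase I and 1 of the other lists (675 bp) had 55.1%, and those covered by no list had 48.5%. Within the Neat1 body the order was the same, with 45.4% for DNase I alone (9271 bp), 49.7% for all 3 lists (3225 bp) and 57.1% for Benzonase or Cyanase without DNase I (955 bp). The hotspot that picked the locus is part of both sums for DNase I alone. Its longest pieces of DNase I alone, 3715 and 1920 bp, had 44.3% and 44.6% GC. No GC value without that hotspot was computed. The 7 regions of the window that DNase I alone marked ranged from 44.3% to 56.6% GC. Single stretches overlapped in range, since those of DNase I alone reached from 36.8% to 56.6% GC. In the body of Malat1, the 268 bp covered by all 3 lists had 36.6% GC, the lowest of the 3-list stretches at either gene. Whether base content sets the extent of the hotspots was not tested.

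**Figure D4:**
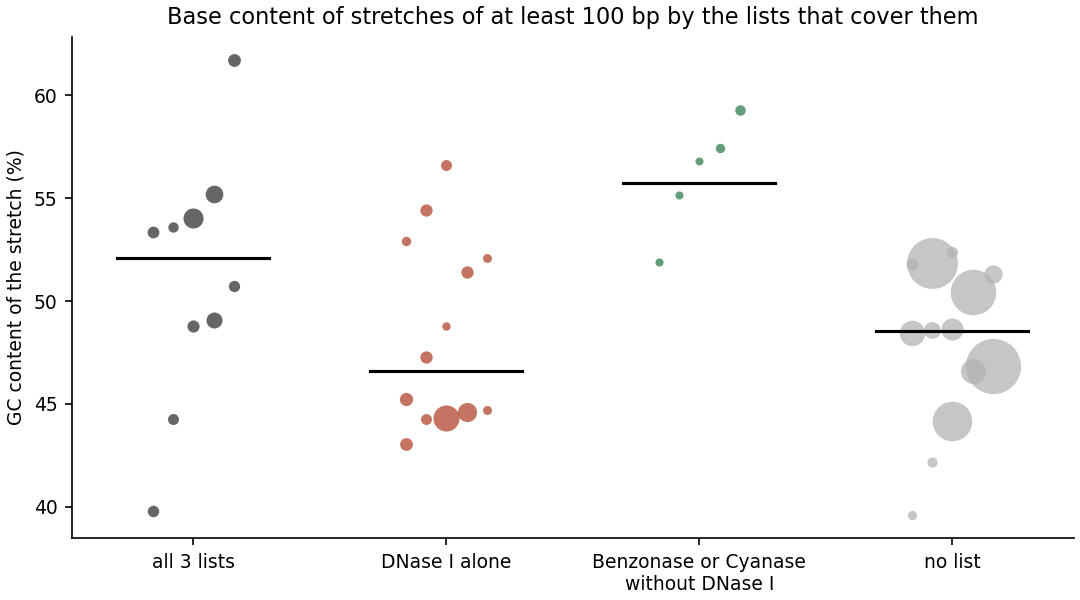
GC content (%) of each stretch of the window of at least 100 bp, grouped on the x axis by the lists that cover it. Points are stretches with an area that grows with length, and black lines are the GC content over all bases of the group, 52.1%, 46.6%, 55.8% and 48.5% from left to right.

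As a share of the gene body, DNase I hotspots covered 60.8% of Neat1, Benzonase hotspots 19.7% and Cyanase hotspots 20.2%. Among the 13365 annotated genes of 3 to 30 kb, 20 had a higher DNase I share, while 1422 had a higher Benzonase share and 1161 a higher Cyanase share. Malat1 was covered to 4.50%, 4.23% and 3.84%, near the middle of these genes, whose medians were 2.22%, 3.86% and 3.30%. The 6005 genes of this length with a start site in all 3 lists had medians of 6.62%, 8.36% and 7.66%, so that Malat1 lay below and Neat1 above in each list. The widest hotspot, by which the locus was picked, makes up much of the DNase I share of Neat1, so that share and the places of Neat1 among genes are a description.

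The DNase I share of Neat1 exceeded the higher of the other 2 lists by 40.6 percentage points, whereas the median over the 6005 genes was -1.56 points. A larger difference was found at 1 of them, Srsf2, a splicing factor gene of 3194 bp covered to 87.1% by DNase I, 37.6% by Benzonase and 36.6% by Cyanase. Next after Neat1 came Fam36a (36.2 points), Bhlhe40 (34.7 points), which encodes a clock-related repressor, and Fam32a (32.1 points, named after its values were seen). This difference and its place rest on the hotspot that picked the locus. Without it, DNase I covered 27.7% of Neat1, the difference was 7.51 points and 178 of the other genes had a larger one. For Malat1 the difference was 0.27 points, and with 2 kb added to each side of the gene its direction turned, to 12.9% for DNase I against 15.4% for Benzonase and 14.0% for Cyanase. By the 3 covered shares together, Bhlhe40 was the gene most like Neat1 among those of 3 to 30 kb, with 56.7%, 21.6% and 21.9% and a Euclidean distance of 4.86 points. Fam36a (13.6 points), the chaperone gene Hspa8 (14.6 points) and Ttr, which encodes the thyroid hormone carrier transthyretin (15.3 points), followed. Malat1 had many neighbours at small distances, the nearest being Sfrs18 (0.23 points) and B9d1 (0.23 points).

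**Figure D5:**
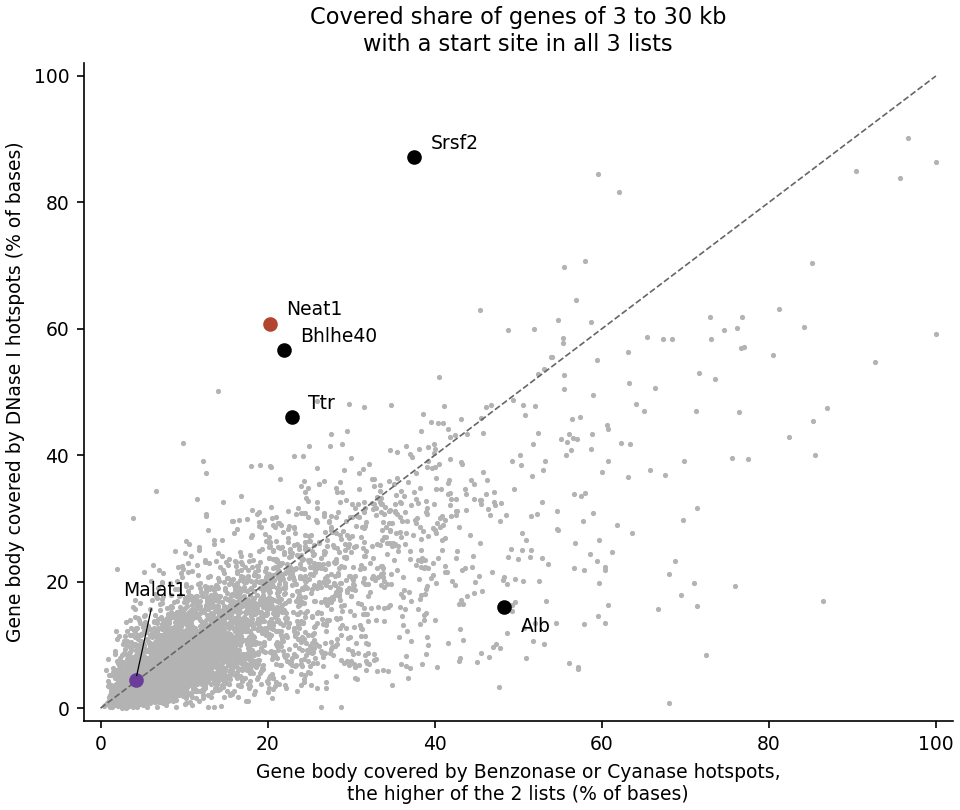
Share of the gene body covered by DNase I hotspots (y axis, % of bases) against the higher of the Benzonase and Cyanase shares (x axis, % of bases) for the 6005 genes of 3 to 30 kb with a start site in all 3 lists, 1 point per gene, with a dashed line of equal shares. Neat1 (60.8% against 20.2%, and 27.7% against 20.2% without the hotspot that picked the locus) lies above the line, Malat1 (4.50% against 4.23%) on it and Alb (16.0% against 48.3%) below.

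In a list of 22 genes with abundant transcripts in liver, DNase I did not have the highest median. The median covered share was 23.5% for DNase I, 32.2% for Benzonase and 24.3% for Cyanase. Alb, which encodes serum albumin, was covered to 16.0% by DNase I, 48.3% by Benzonase and 40.9% by Cyanase, the opposite order to Neat1. Ttr was covered to 46.0%, 22.4% and 22.9%, in the same order as Neat1. Start sites of 22 of 22 of these genes lay in hotspots of each list, against 32.2% (DNase I), 39.0% (Benzonase) and 37.8% (Cyanase) of all 37273 annotated genes.

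Genes for protein partners of these RNAs had hotspots at their start sites. Their median covered shares were near those of the 6005 genes of 3 to 30 kb with a start site in all 3 lists. The partner genes were not limited to that length, with Smarca4 at 88062 bp and Prpf6 at 63793 bp. Of the 15 genes for paraspeckle proteins, among them Sfpq and Nono, whose products bind Neat1 RNA, start sites of 15 lay in hotspots of all 3 lists, and the share over all genes was 30.8%. The median covered share of their bodies was 6.11%, 6.44% and 6.12% for DNase I, Benzonase and Cyanase, and the highest DNase I share was 20.2%, at Dazap1. The 15 genes for nuclear speckle and splicing factors were likewise all marked in 3 lists, with median covered shares of 7.02%, 9.72% and 7.18%, where the 6005 genes had 6.62%, 8.36% and 7.66%. Srsf2 was the member with the highest DNase I share. The paper reports Benzonase and Cyanase hotspots at the start sites of most genes with many transcripts. Both counts of 15 thus cannot be read as particular to partner genes.

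Other long noncoding RNA genes were marked in part. Of the 16 listed, 13 were in the annotation under these names (not Kcnq1ot1, Snhg8 and Hotair), and start sites of 6, 7 and 8 of them lay in DNase I, Benzonase and Cyanase hotspots, against 32.2%, 39.0% and 37.8% of all genes. Gas5, Snhg1, Snhg3 and Snhg12, hosts of small nucleolar RNAs, together with Tug1 and Pvt1 were marked in all 3 lists. H19, Xist, Miat, Rian and Mirg were marked in none. The highest DNase I share of a gene body in this list was 26.3%, at Gas5, against 60.8% at Neat1. Its median was 4.33%, close to the 4.50% of Malat1.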

How the data were processed

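Accessible chromatin of mouse liver was mapped with 3 nucleases. Eland or Bowtie was used by the authors to place tags on mm9. They then combined the libraries of a nuclease and kept hotspots with an FDR of 0% whose tag density passed a cutoff set at the mode. The deposited lists, per the file headers input adjusted and unmerged, give chromosome, start and end. They give no count or score, so the depth behind a hotspot is unknown. They hold 72286 (DNase I), 60910 (Benzonase) and 57675 (Cyanase) hotspots, in each case more than the paper reports. Splitting and short gaps between hotspots are thus described for these unmerged lists only. There were 0 columns of other samples.

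Positions were used on NCBIM37 (mm9) with GENCODE release M1 and are printed counting from 1. An overlap of 1 bp or more made a pair of hotspots shared. Covered shares are bases of a gene inside hotspots of a list. CpG-rich stretches are joined windows of 200 bp in which GC content exceeds 50% and the observed to expected CpG ratio exceeds 0.6, so a joined stretch may fall below either. The 3′ ends were aligned locally with Biopython 1.88 (match 2, mismatch -3, gap -5 and -2). Python 3.11.15, numpy 2.4.6, scipy 1.17.1 and matplotlib 3.10.9 were used. On simulated lists, 200 of 200 planted covered shares and 400 of 400 planted overlaps were recovered.

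The locus and the gene lists were chosen with earlier results of these data known. Named genes are Neat1, Malat1, genes that overlap the window, members of the lists, genes at the widest hotspots and those nearest in covered share. One promoter sequence is not reported here. No test was run, because each nuclease is 1 pooled list. Alternatives were other windows, overlap rules, joining, gene bounds, start sites and a width minimum.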

Additional observations from a re-analysis of the deposited data

How the results depend on the processing

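Of 81 values under alternative settings, 67 stayed within the margin set for them (1.5 times for a count, the 95% Wilson binomial interval over bases for a share, which treats bases as independent) and 14 moved. With 50 kb either side, the window held 17 Benzonase and 19 Cyanase hotspots. With 2 kb added to each side of the gene, the covered share of Neat1 was 59.3% (DNase I), 23.7% (Benzonase) and 24.0% (Cyanase), and that of Malat1 was 12.9%, 15.4% and 14.0%, so that DNase I no longer had the highest share of Malat1. After removal of hotspots below the lower quartile of width, the Neat1 shares were 59.5%, 15.6% and 18.1%. If each hotspot of a pair had to be overlapped over 50% of its length, 4 Benzonase hotspots of the window matched a DNase I hotspot in place of 8. Without the widest hotspot, chosen after seeing the data, DNase I covered 27.7% of Neat1 and 15.8% of the window. DNase I had the highest share of Neat1 under each of these settings. GC content outside repeats was not run, because the genome sequence used carries no repeat marks. Single libraries could not be left out, because the lists pool them. No paired analysis was possible because the lists hold no replicates. Depth limits the absence of a hotspot, which says only that none was called.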

Other observations

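The DNase I hotspots at least 3000 bp wide that the other lists covered least were looked up after the values at Neat1 were seen. After the hotspot on chromosome X and that in Neat1, the next lay on chromosome 9 from 40613861 to 40618220 (4360 bp, 21.0% covered by Benzonase or Cyanase), outside annotated genes. It was followed by 121966954 to 121971609 on chromosome 8 (4656 bp, 28.9% covered), over Necab2 and Osgin1, the latter an oxidative stress response gene.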
